A study of Mus musculus with 10 samples.

Results

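The 10 receptors of the TNF receptor family described here are used by lymphocytes. They were chosen by name, with earlier results of these data known. All 10 were found among the 56893 genes of the deposited count table and were followed through 5 libraries. They are Cd40, Tnfrsf13c (BAFF receptor), Tnfrsf13b (TACI), Tnfrsf17 (BCMA), Cd27, Tnfrsf9 (4-1BB), Tnfrsf14 (HVEM), Tnfrsf1a (TNFR1), Tnfrsf1b (TNFR2) and Fas. Poly(A) RNA came from primary mouse spleen cells labelled T cell or B cell, in which CRISPR interference, where a guide RNA brings inactive Cas9 to a promoter, was aimed at Pou2f1, the gene of the octamer-binding factor Oct-1. T cells were either mock or carried sgRNA-P1, and B cells were mock or carried sgRNA-P1 or sgRNA-P2, guides named for the P1 and P2 promoters of Pou2f1. Mouse strain and age, the way cells were selected, the time under the guide, and whether mock cells also held the inactive Cas9 are not stated in the labels. In each group the 2 deposited columns differed by far less than sampling noise allows. They were therefore counted as 1 sample, and no comparison of a pair of libraries has a replicate check.

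Receptors of this family are single-pass membrane proteins with cysteine-rich repeats outside the cell, and they are engaged by ligands of the TNF family on other cells or in solution. Most recruit TRAF adaptor proteins that lead to NF-kB, while Fas and TNFR1 also carry a death domain that can start cell death. In B cells the BAFF receptor sustains survival and CD40 receives help from T cells, and in T cells CD27, 4-1BB, OX40 and GITR act as costimulatory receptors.

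The library totals were 71858511 reads for mock T cells, 39352816 for T cells with sgRNA-P1, 33842813 for mock B cells, 49066261 for B cells with sgRNA-P1 and 28118839 for B cells with sgRNA-P2. Levels are CPM, counts relative to library size, after TMM scaling, a scaling that assumes most genes do not differ, and brackets hold 95% intervals that cover counting error only. Pou2f1, the target, had 138 CPM in mock T cells and 66.1 with sgRNA-P1, and at 157 CPM in mock B cells, 91.1 with sgRNA-P1 and 86.5 with sgRNA-P2. It shares 3007 exon bases with Cd247, a T cell receptor chain gene of the opposite strand at 315 CPM by total reads in mock T cells, so its T cell values are uncertain. All 10 T cell markers summed to 5230 to 5290 CPM in T libraries and 48.8 to 50.3 in B libraries, nearly all of the latter from Lck, with Trbc2 at 0 reads in mock B cells, Cd3e in both B libraries with a guide and Cd3d in that with sgRNA-P2. The 10 B cell markers summed to 19573 to 20052 CPM in B libraries and 348 to 367 in T libraries, of which Ighm made up 323 to 341, with none at 0. Other lists gave summed levels, in T then B libraries, of 604 to 608 and 19.1 CPM for regulatory T cells (Ikzf2 at 0 in mock B cells), 482 to 490 and 70.8 to 76.6 for memory and effector T cells (Gzmb or Gzma at 0 in 2 B libraries), 102 to 104 and 644 to 651 for plasma cells (Mzb1 at 0 in T cells with sgRNA-P1), and 148 to 149 and 6.86 to 7.36 for NK cells (Eomes at 0 in every B library, Nkg7 in that with sgRNA-P2). Myeloid markers summed to 7.40 to 8.56 and 10.1 to 11.9 CPM, with Cd14 or S100a8 at 0 in 3 libraries, and erythroid and platelet markers to 6.07 to 7.24 and 2.90 to 3.31 CPM, with Pf4 at 0 in all 5, Ppbp in 4 and Hbb-bs in 1. In bulk RNA, fewer cells of a type and less RNA per cell cannot be told apart.

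The genes lie on 7 chromosomes in the deposited coordinates. The submitters' processing notes name mm39 among the builds. Cd40 spans 164897547 to 164914868 on chromosome 2 (plus strand, 9 merged exon blocks), and Tnfrsf13c spans 82105944 to 82108570 on chromosome 15 (minus, 3 blocks). Tnfrsf13b lies at 61017581 to 61040198 on chromosome 11 (plus, 8 blocks) and Tnfrsf17 at 11131676 to 11137938 on chromosome 16 (plus, 3 blocks). On chromosome 4 lie Tnfrsf1b at 144940033 to 144973440 (minus, 10 blocks), Tnfrsf9 at 150999019 to 151030559 (plus, 11 blocks) and Tnfrsf14 at 155006390 to 155013020 (minus, 10 blocks). Cd27 (125209585 to 125213973, minus, 5 blocks) and Tnfrsf1a (125326325 to 125339447, plus, 11 blocks) are both on chromosome 6, and Fas is at 34268066 to 34305172 on chromosome 19 (plus, 12 blocks). Among the 10, exon bases were shared with another gene only by Cd27, which shares 129 bases with the microRNA gene Mir8113 at 0 reads in every library.

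Promoter sequence was at hand for 9 of the 10 members, from RefSeq on GRCm38.p6, with 2 start sites for Tnfrsf9. The 250 bases before each start were searched on both strands for the octamer ATGCAAAT, the motif that Oct-1 binds, and for the kappa-B consensus that NF-kB binds. The octamer was in 0 of the 10 member windows and in 1.6% of all 32851 windows in the table. A kappa-B match was in 1 of 10, upstream of the second listed start of Tnfrsf9, and in 7.25% of all windows. The windows shown are those of the member with the highest level per kilobase in mock B cells (Tnfrsf13c), of the member with the highest in mock T cells (Cd27), and the one with the match, whose bases are in capitals. They are chr15:82224381-82224630 (minus strand), chr6:125237028-125237277 (minus) and chr4:150927749-150927998 (plus), each written 5′ to 3′ up to the base before the start.
Tnfrsf13c: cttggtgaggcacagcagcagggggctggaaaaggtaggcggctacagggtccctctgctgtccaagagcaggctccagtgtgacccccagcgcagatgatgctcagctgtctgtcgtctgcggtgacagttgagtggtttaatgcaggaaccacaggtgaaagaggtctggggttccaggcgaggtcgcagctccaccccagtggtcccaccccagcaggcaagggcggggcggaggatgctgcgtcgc
Cd27: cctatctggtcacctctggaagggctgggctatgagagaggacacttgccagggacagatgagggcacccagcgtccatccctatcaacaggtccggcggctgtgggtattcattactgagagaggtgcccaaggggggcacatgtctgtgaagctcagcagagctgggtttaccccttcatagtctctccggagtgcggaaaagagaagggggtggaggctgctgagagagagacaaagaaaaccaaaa
Tnfrsf9: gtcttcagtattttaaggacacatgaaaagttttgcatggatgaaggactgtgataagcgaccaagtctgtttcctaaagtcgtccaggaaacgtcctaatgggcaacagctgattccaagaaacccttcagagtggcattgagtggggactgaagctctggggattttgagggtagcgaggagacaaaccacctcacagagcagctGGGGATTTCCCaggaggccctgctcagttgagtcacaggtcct
GC content was 63.2% in the Tnfrsf13c window, with 10 CpG pairs, 56% in that of Cd27, with 5, and 49.6% in that of Tnfrsf9, with 4. The median of all windows was 52.4%. A match is a description of the letters and no evidence of binding, and a window without one says nothing about the factor.

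The 5 libraries fell into a T cell and a B cell pattern of receptors. Cd40, Tnfrsf13c and Tnfrsf13b were higher in B cells, and Cd27, Tnfrsf9, Tnfrsf14, Tnfrsf1a, Tnfrsf1b and Fas were higher in T cells. Tnfrsf17 was at or below 1 read everywhere. Between the mock libraries, 9 members reached 5 CPM in the higher of the pair, and the T level was at least 1.5-fold above the B level for 6 of them and below it by as much for 3. Of all 10804 genes at that level, 18.6% were 1.5-fold or more higher in T cells, 18.4% in B cells and 37% in either.

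The cell types were also compared over all 5 libraries, 2 of T and 3 of B cells, with edgeR's quasi-likelihood test and the guide as a second term. These libraries are not labelled replicates of a cell type, so the spread in the test is that between libraries under different guides, with 2 residual degrees of freedom. All 9 members tested passed a false discovery rate of 0.05, 6 higher in T and 3 higher in B libraries, where 64.2% of 17581 genes passed in either direction (32.4% higher in T, 31.8% higher in B). Their adjusted p lay between 4.8e-17 and 5.6e-12. The SE given with a 5-library difference is the fitted difference divided by the square root of the test's F statistic. Where a cell type had few reads, as for Cd40, Tnfrsf1a and Tnfrsf25, this SE is smaller than counting error alone and does not measure the uncertainty. No member's T and B libraries overlapped in level among these 9.

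**Figure D1:**
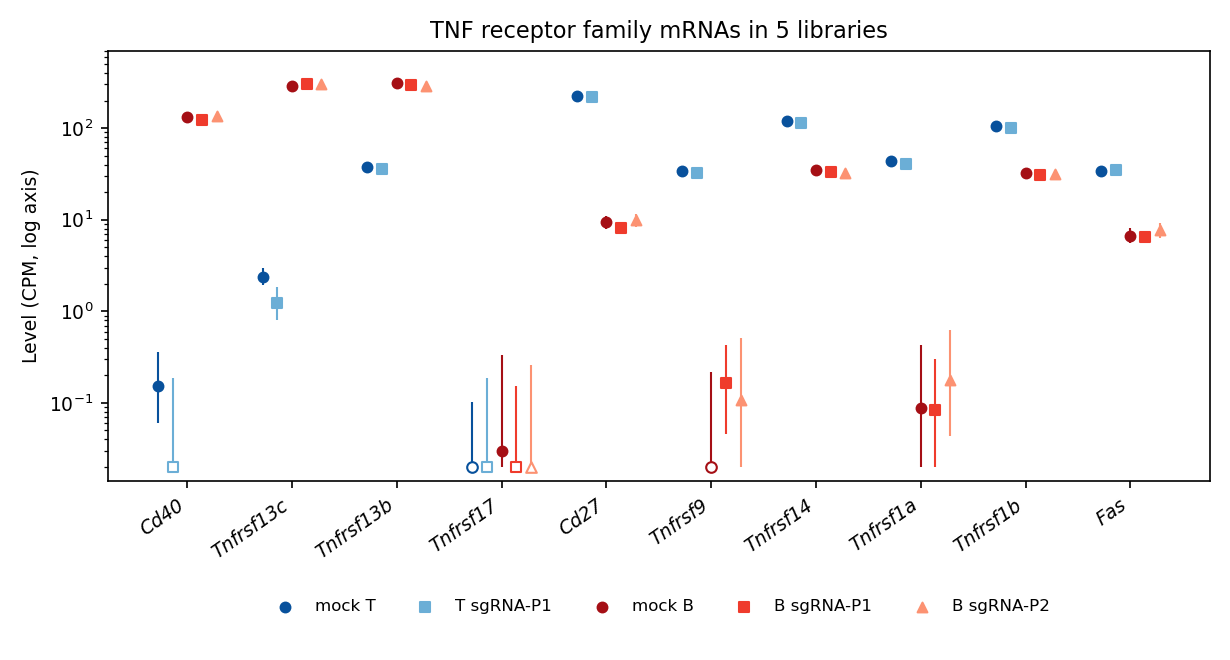
Level of each receptor mRNA in CPM on a log axis in the 5 libraries, with 95% counting intervals as lines; open symbols at the bottom mark libraries with 0 reads, and lines that reach the bottom are cut there. T and B libraries stand apart for every gene but Tnfrsf17, which had 1 read in mock B cells and 0 in the other libraries.

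Among the receptors of B cell help and survival, Cd40, the receptor for CD40 ligand, was at 132 CPM in mock B cells [126 to 137], 122 with sgRNA-P1 and 134 with sgRNA-P2, against 0.153 CPM (11 reads) in mock T and 0 reads in the T library with the guide. For the last library, the limit that a count of 0 allows is 0.15 CPM. The mock B level was 793-fold the mock T level, a log2 difference of -9.63 for T over B [-11.08 to -8.51], which ranked 127 from the lowest of 10804 genes. Over the 5 libraries edgeR's quasi-likelihood test gave -10.36 ± 0.18 (SE, adjusted p = 3.6e-16).

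Tnfrsf13c encodes the BAFF receptor, which binds BAFF alone. It stood at 292 CPM in mock B cells [284 to 300], 303 with sgRNA-P1 and 302 with sgRNA-P2, and at 2.40 CPM in mock T cells [1.93 to 2.98] and 1.23 with sgRNA-P1 [0.810 to 1.85]. The mock libraries differed by -6.92 on the log2 scale [-7.24 to -6.61], 121-fold, and the 5-library test gave -7.28 ± 0.13 (SE, adjusted p = 4e-16, edgeR). Between the T libraries the level went from 2.40 to 1.23 CPM, a spread that this SE does not measure.

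Tnfrsf13b encodes TACI, a receptor for both BAFF and APRIL. It was also found in T libraries, at 37.3 CPM in mock [35.4 to 39.4] and 36 with sgRNA-P1 [33.4 to 38.7]. In B libraries it was at 311 CPM in mock, 293 with sgRNA-P1 and 288 with sgRNA-P2. The mock T level was 12% of the mock B level, a log2 difference of -3.06 [-3.15 to -2.97], against 0.821% for Tnfrsf13c and 0.116% for Cd40. The 9 B cell markers compared lay in mock T cells between 0.0309% (Blnk) and 0.47% (Cd79b) of their mock B level except Ighm, at 6.09%. Tnfrsf13b was thus at a larger share of its B cell level in T cells than any of those markers. Its exons overlap none of another gene in the table. The 5-library difference was -3.05 ± 0.05 (SE, adjusted p = 4.6e-16, edgeR's quasi-likelihood test).

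**Figure D2:**
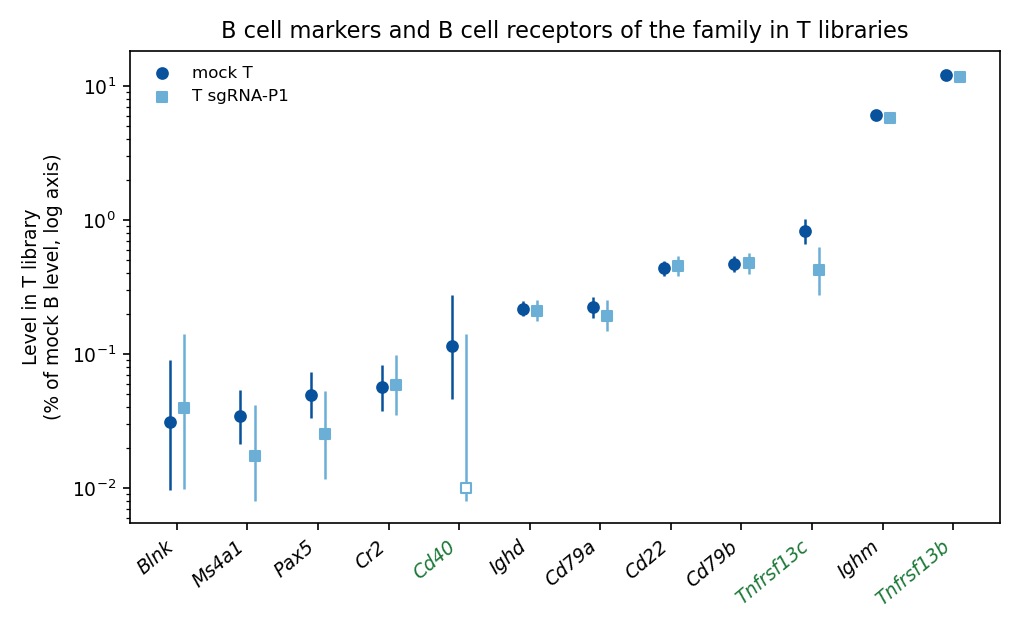
Level of 9 B cell markers (black labels) and of Cd40, Tnfrsf13c and Tnfrsf13b (green labels) in both T libraries, as a percentage of the mock B level on a log axis; lines are 95% counting intervals of the T level, and the open symbol is 0 reads. Tnfrsf13b is highest, at 12% in mock T cells, next to Ighm at 6.09%.

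Tnfrsf17 encodes BCMA, the receptor of plasma cells. It had 1 read in mock B cells and 0 in the other 4 libraries, where the limit that a count of 0 allows is 0.0832 CPM for mock T cells and 0.15 for those with the guide, and for B cells 0.124 under sgRNA-P1 and 0.213 under sgRNA-P2. The 6 plasma cell markers in mock B cells were Irf4 at 429 CPM, Jchain at 106, Xbp1 at 73.1, Sdc1 at 19.7, Mzb1 at 12.6 and Prdm1 at 5.03, and Prdm1 was higher in mock T cells, at 11.5 CPM. No fold is given for Tnfrsf17.

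Of the costimulatory receptors, Cd27 had the highest level per kilobase of any member in T cells. Its level was 224 CPM in mock T cells [219 to 229] and 216 with sgRNA-P1, and at 9.40 CPM in mock B cells (318 reads), 8.22 with sgRNA-P1 and 9.85 with sgRNA-P2. Mock T cells were 23.7-fold above mock B cells, a log2 difference of 4.57 [4.35 to 4.81]. The 5-library difference was 4.58 ± 0.07 (SE, adjusted p = 4.8e-17, edgeR's quasi-likelihood test).

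Tnfrsf9 encodes 4-1BB, a costimulatory receptor that activated and regulatory T cells carry. T libraries held 33.9 CPM in mock [32.1 to 35.9] and 32.2 with sgRNA-P1, while there were 0 reads in the mock B library, 8 under sgRNA-P1 and 3 under sgRNA-P2. The mock T level was 191-fold a floor of 3 fragments (6 reads) in mock B cells. The 95% interval of the log2 ratio of the mock libraries began at 7.28, which is a smaller ratio. The regulatory T cell marker Foxp3 had a level of 97.2 CPM in mock T cells, and it had 5 reads in mock B cells, 33 with sgRNA-P1 and 27 with sgRNA-P2. Ikzf2, of the same list, had 0 reads in mock B cells, 5 with sgRNA-P1 and 3 with sgRNA-P2. Ctla4 was at 5.38 CPM in mock B cells, 3.76 with sgRNA-P1 and 3.98 with sgRNA-P2. The list summed to 19.1 CPM in each of these libraries, nearly all of it from Ctla4, Tnfrsf18, Tnfrsf4 and Il2ra. The part of regulatory T cells in the Tnfrsf9 reads was not tested.

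Tnfrsf14, which encodes HVEM, was expressed in both cell types. T libraries held 119 CPM in mock [116 to 123] and 115 with the guide, and B libraries 35.1 in mock [32.3 to 38.1], 33.2 with sgRNA-P1 and 32.3 with sgRNA-P2. T cells were 3.40-fold above B cells in mock, a log2 difference of 1.77 [1.64 to 1.89], and the 5-library difference was 1.78 ± 0.05 (SE, adjusted p = 2.4e-13, edgeR).

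The TNF receptors differed from each other in how far they were shared. Tnfrsf1a encodes TNFR1, which has a death domain and in many tissues is found on most cells. Its level was 43.9 CPM in mock T cells [41.8 to 46.1] and 40.9 with sgRNA-P1, but had 3 reads in mock B cells, 4 with sgRNA-P1 and 5 with sgRNA-P2, which are 0.0887, 0.083 and 0.178 CPM. The mock ratio was 372-fold, or 8.54 on the log2 scale [6.68 to 11.58], from 3 reads on the B side. The 5-library difference was 8.54 ± 0.17 (SE, adjusted p = 1.4e-15, edgeR), an SE that understates the counting error of so few B reads. Tnfrsf1b encodes TNFR2, which has no death domain and binds TRAF2. T libraries held 106 CPM in mock [103 to 109] and 100.2 with the guide, against 32.4 in mock B cells [29.7 to 35.2], 30.7 with sgRNA-P1 and 31.7 with sgRNA-P2. For Tnfrsf1b the T level was 3.27-fold the B level, with a log2 difference of 1.71 [1.58 to 1.84] (5-library test 1.68 ± 0.06 SE, adjusted p = 6.7e-13, edgeR). B libraries thus held reads of TNFR2 and next to none of TNFR1, where T libraries held both.

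Fas, the death receptor for Fas ligand, was found in both cell types and was higher in T cells. Its level was 34.2 CPM in mock T cells [32.4 to 36.2] and 35.2 with sgRNA-P1, and at 6.71 CPM in mock B cells [5.56 to 8.10], 6.52 with sgRNA-P1 and 7.65 with sgRNA-P2. The mock ratio was 5.08-fold (2.35 on the log2 scale [2.07 to 2.64]), and the 5-library difference 2.32 ± 0.09 (SE, adjusted p = 5.6e-12, edgeR's quasi-likelihood test).

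Divided by merged exon length, levels can be set between genes. In mock T cells the order was Cd27 (96.1 CPM per kilobase), Tnfrsf14 (83.0), Tnfrsf1b (27.8), Tnfrsf1a (16.9), Fas (16.6), Tnfrsf13b (13.2), Tnfrsf9 (12.5), Tnfrsf13c (1.17), Cd40 (0.0448) and Tnfrsf17 (0). Neighbours whose counting intervals overlapped were Tnfrsf1a and Fas, Tnfrsf13b and Tnfrsf9, and Cd40 and Tnfrsf17. In mock B cells the order was Tnfrsf13c (143 CPM per kilobase), Tnfrsf13b (110), Cd40 (38.7), Tnfrsf14 (24.4), Tnfrsf1b (8.48), Cd27 (4.04), Fas (3.25), Tnfrsf17 (0.0363), Tnfrsf1a (0.0342) and Tnfrsf9 (0). There, Cd27 and Fas overlapped, as did each of the last 3 with its neighbour. In T cells with sgRNA-P1, Fas (17.1) stood above Tnfrsf1a (15.8), with overlapping intervals, Cd40 and Tnfrsf17 were tied at 0 reads, and the other members kept their places. In both B libraries with a guide the first 7 places were the same as in mock.

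**Figure D3:**
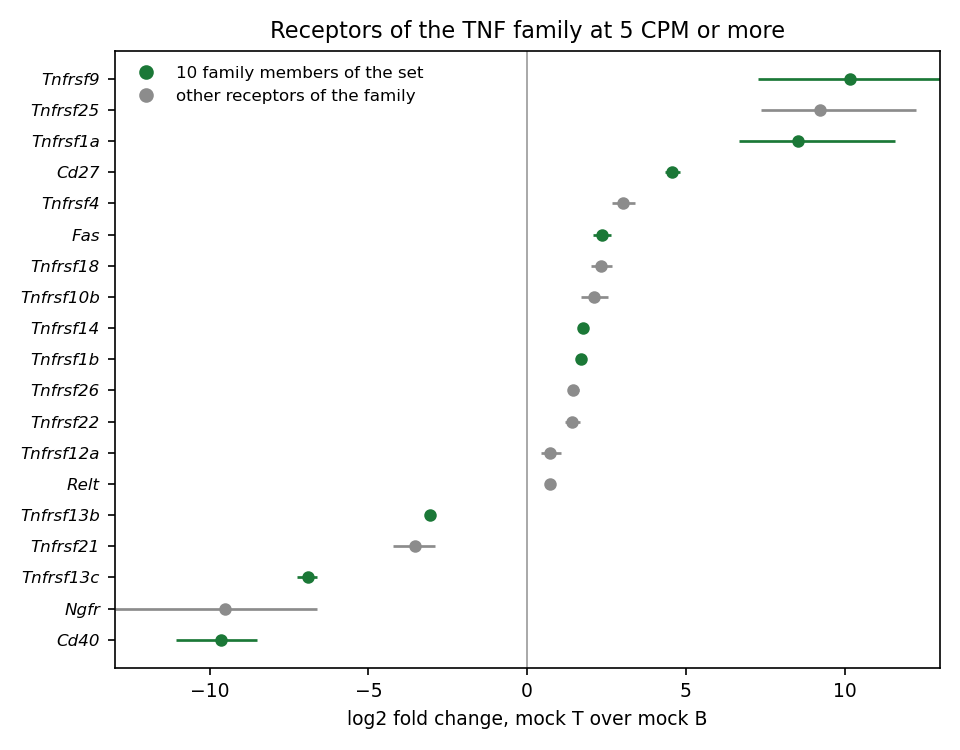
Log2 fold change of mock T over mock B cells for the receptors of the TNF family at 5 CPM or more, with 95% counting intervals as lines; lines that run to the edge are open because 1 library had 0 reads. Of the 10 members (green), 6 lie above 0 and 3 below, down to Cd40 at -9.63, and of the other receptors (grey) 8 lie above 0 and 2 below.

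The 18 other receptors of the family were taken as a list. At 5 CPM or more, 8 of 10 were 1.5-fold or more higher in mock T cells and 2 in mock B cells, beside 18.6% and 18.4% of all genes. In the 5-library test 10 of 13 were called higher in T and 3 higher in B, beside 32.4% and 31.8% of all genes. Tnfrsf25, the death receptor DR3, had 70.3 CPM in mock T cells and 0.0887 in mock B cells (5-library log2 difference 8.61 ± 0.16 SE, adjusted p = 6.2e-16, edgeR). Tnfrsf4 (OX40) was at 35.6 against 4.35 CPM and Tnfrsf18 (GITR) at 26.9 against 5.32, and both are also on the regulatory T cell list. Relt (57.5 against 35.1 CPM) and Tnfrsf26 (53.9 against 19.7) had smaller ratios. The median of the list was 1.31 on the log2 scale over the 5 libraries, beside 1.78 for the members and 0.01 for all genes tested.

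Ligands were sparse beside their receptors in some pairs. Cd40lg, the ligand of CD40, was at 57.8 CPM per kilobase in mock T cells and 0.0236 in mock B cells, the reverse of Cd40 (0.0448 and 38.7). Cd70, the ligand of CD27, had 1 read in mock T cells and 0 in the other libraries. The BAFF gene Tnfsf13b was at 0.125 CPM per kilobase in mock T and 0.0473 in mock B cells, and the APRIL gene Tnfsf13 had 1 read in each mock library. Tnfsf9, the 4-1BB ligand, was at 0.892 and 0.527 CPM per kilobase.

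Other ligands differed more widely in level. Btla, an immunoglobulin-family receptor that binds HVEM, was at 337 CPM per kilobase in mock B cells and 59.5 in mock T cells, where Tnfrsf14 had 24.4 and 83.0. Tnfsf14 (LIGHT) and Fasl were at 4.83 and 4.56 CPM per kilobase in mock T cells and had 0 reads in mock B cells. Tnf was higher in mock T cells (14.2 against 6.24 CPM per kilobase), while Lta was at 18.6 against 22.3 and was called higher in B cells over the 5 libraries (adjusted p = 0.00085, edgeR). Ltb was the highest in T cells, at 328 CPM per kilobase, and stood at 299.96 in mock B cells. Tnfsf8, the CD30 ligand gene, was at 21.0 against 0.0388. Of the 19 ligand genes, 15 were tested over the 5 libraries, of which 11 were called higher in T and 3 higher in B, beside 32.4% and 31.8% of all genes.

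**Figure D4:**
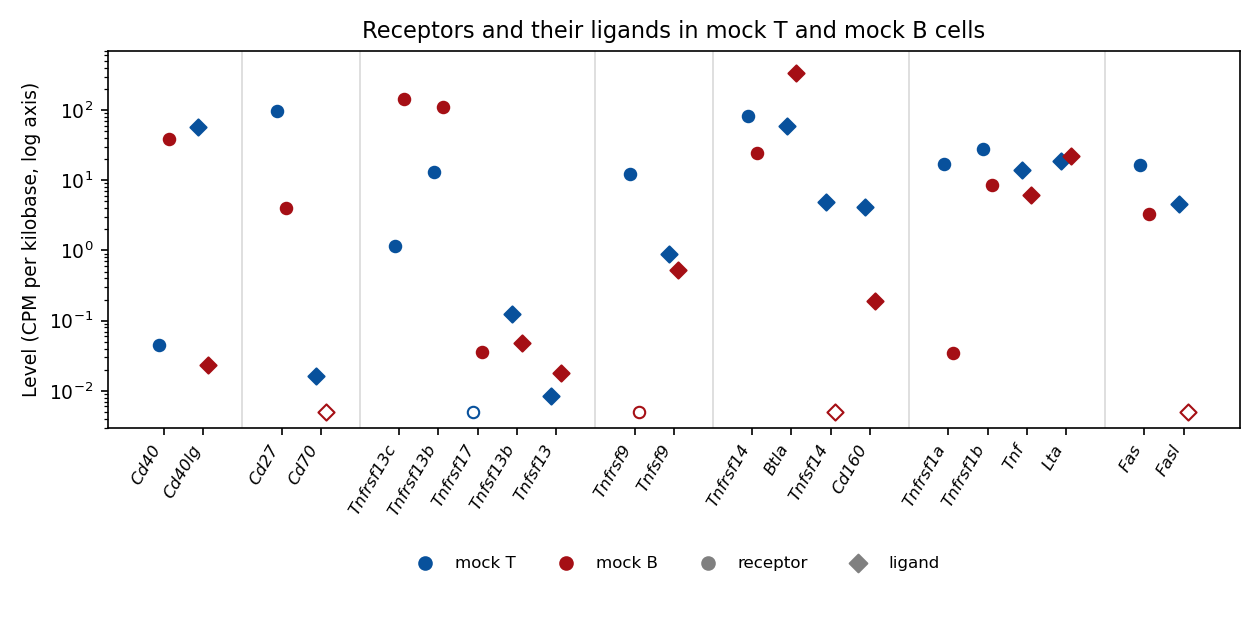
Level in CPM per kilobase on a log axis of receptors (circles) and their ligands (diamonds) in mock T and mock B cells, grouped by pair; open symbols are 0 reads. Cd40 and Cd40lg stand in opposite cell types, while Cd70, Tnfsf13b and Tnfsf13 are at 0.125 CPM per kilobase or less in both.

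Downstream of the receptors, 22 adaptor and enzyme genes were taken as a list, all at 5 CPM or more. By the size rule 3 were higher in mock T and 3 in mock B cells, beside 18.6% and 18.4% of all genes. In the 5-library test 9 were called higher in T and 6 higher in B, beside 32.4% and 31.8% of all genes. Casp8, the initiator caspase of Fas, was at 61.8 against 37.3 CPM per kilobase in T and B cells, and Birc3, a ubiquitin ligase of TRAF complexes, was higher in B cells at 79.4 against 25.4 (5-library log2 difference -1.67 ± 0.05 SE, adjusted p = 2e-13, edgeR). Rbck1 (54.1 against 43.6) and Sharpin (23.1 against 36.5), subunits of the linear ubiquitin ligase, were called in opposite directions. Birc2 (31.5 against 27.5) was called higher in T cells. Tab2 (36.4 against 32.5) did not pass (adjusted p = 0.097, edgeR).

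Of 15 NF-kB and feedback genes, 4 were called higher in T and 10 higher in B libraries, beside 32.4% and 31.8% of all genes. Tnfaip3, the NF-kB inhibitor A20, was at 166 CPM per kilobase in mock T and 29.9 in mock B cells (2.44 ± 0.05 SE on the log2 scale over 5 libraries, adjusted p = 1.6e-15, edgeR). Nfkbia (167 against 106) and Tnip1 (42.3 against 23.2), also inhibitors, were higher in T cells. Other inhibitors of the list were called higher in B cells, Nfkbie with a 5-library log2 difference of -1.87 and Nfkbib with -0.44. The subunit genes Rel (63.8 against 15.8) and Nfkb2 (57.9 against 18.4) were higher in B cells, as was Otulin, a deubiquitinase (52.7 against 30.2). Rela was at 44.8 and 45.8 CPM per kilobase in T and B cells, with a difference of -0.13 ± 0.05 (SE, adjusted p = 0.047, edgeR).

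The guides were then compared with mock, which asks whether receptors of the family differed where Pou2f1 was lower. No member at 5 CPM or more reached 1.5-fold in any of the comparisons. In T cells this was 0 of 7 members, where 0.11% of 10007 genes were called (0.06% higher, 0.05% lower). For B cells under sgRNA-P1 the count was 0 of 7, where 0.735% of 10062 genes were called (0.477% higher, 0.258% lower). For B cells under sgRNA-P2 the count was 0 of 7, where 0.278% of 10061 genes were called (0.129% higher, 0.149% lower). At such background shares, 0 of 7 is no result about the members, and the counting intervals are given for each. These lay within 1.5-fold for all 7 members in each of these comparisons, with Pou2f1 itself at 47.9%, 58.1% and 55.2% of mock.

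**Figure D5:**
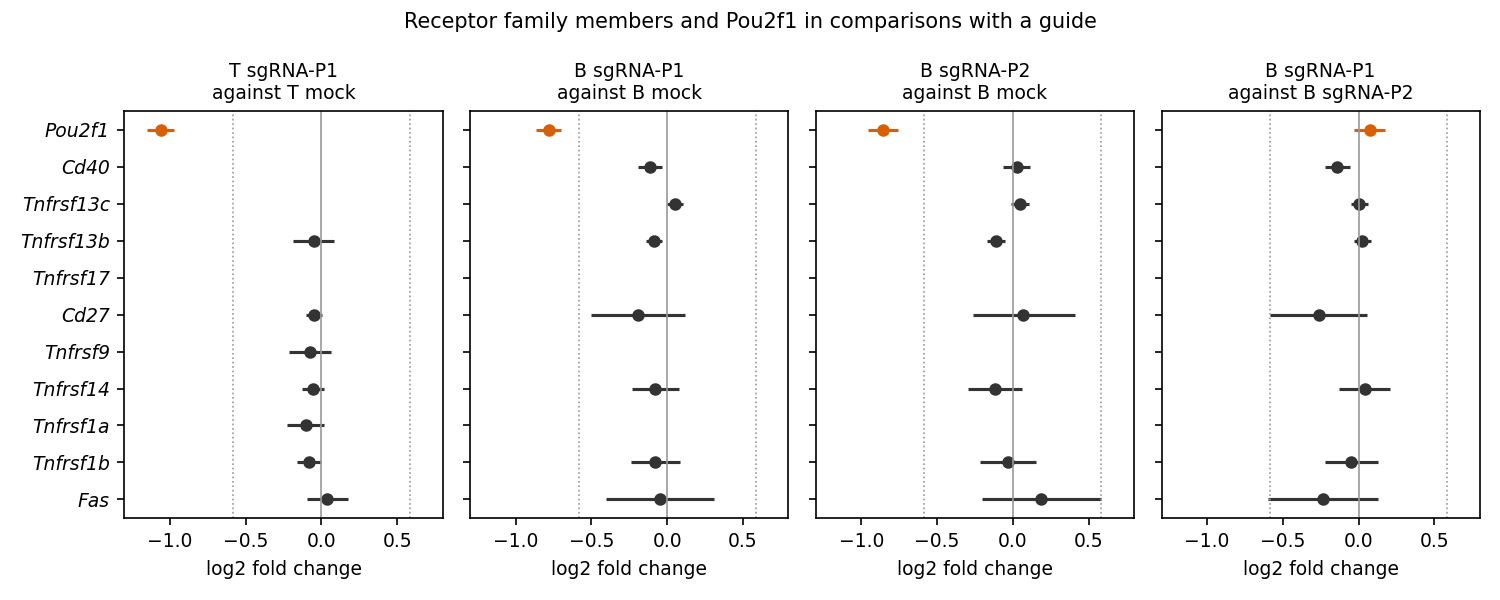
Log2 fold change of each member at 5 CPM or more and of Pou2f1 (orange) in the 4 comparisons with a guide; lines are 95% counting intervals and dotted lines mark 1.5-fold. The members lie between -0.26 and 0.19, while Pou2f1 lies at -0.78 or lower against mock.

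In T cells with sgRNA-P1, 6 of the 7 members had a value below 0 and 1 above, with a median log2 fold change of -0.06 where the median of all genes was -0.02. The values ran from Tnfrsf1a at -0.10 [-0.23 to 0.02] to Fas at 0.04 [-0.10 to 0.17]. Only the interval of Tnfrsf1b left out 0, at -0.08 [-0.16 to -0.00]. Cd27 was at -0.05 [-0.10 to 0.00], Tnfrsf14 at -0.06 [-0.13 to 0.02], Tnfrsf9 at -0.08 [-0.22 to 0.06] and Tnfrsf13b at -0.05 [-0.18 to 0.08]. The widest of the 7 intervals reached 1.17-fold.

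Below the 5 CPM level, Tnfrsf13c in T cells fell outside the size rule for its low count. It had 173 reads in mock T cells and 49 with sgRNA-P1, 51.2% of the mock level, with a log2 fold change of -0.95 [-1.65 to -0.29]. The B cell markers Ms4a1 (11 reads, 50.9% of mock) and Pax5 (15 reads, 51.1%) had intervals that held 0, while Cd22 was at 104% and Ighm at 94.6%. The B cell list without Ighm summed to 25.4 CPM in mock T cells and 24.7 with sgRNA-P1, 97.1% of mock. The part of B cell RNA in this value was not tested.

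In B cells with sgRNA-P1, 6 of 7 members were below 0 and 1 above, with a median of -0.08 against -0.01 for all genes. Cd40 was at -0.11 [-0.19 to -0.03] and Tnfrsf13b at -0.09 [-0.14 to -0.03], both with intervals off 0. Tnfrsf13c was at 0.05 [-0.00 to 0.10], Tnfrsf1b at -0.08 [-0.24 to 0.08] and Tnfrsf14 at -0.08 [-0.23 to 0.08]. The least counted members were Cd27, at -0.19 [-0.50 to 0.12], and Fas, at -0.04 [-0.41 to 0.31]. Across genes, which are not independent replicates, the fold change in this comparison fell with GC content (rho = -0.48, Spearman). With a trend on GC content and length subtracted, Cd40 was at -0.06, Tnfrsf13b at 0.02 and Tnfrsf13c at 0.16.

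In B cells with sgRNA-P2, which share their mock library with those of sgRNA-P1, 4 members were above 0 and 3 below, with a median of 0.03 against -0.00 for all genes. Tnfrsf13b was at -0.11 [-0.17 to -0.05], the only interval off 0. Cd40 was at 0.03 [-0.06 to 0.12], Tnfrsf13c at 0.05 [-0.01 to 0.11] and Tnfrsf14 at -0.12 [-0.30 to 0.06]. The largest value was that of Fas, at 0.19 [-0.20 to 0.58], from 227 reads in mock and 215 with the guide.

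Set against each other without the mock library, the guides gave 0 of 7 members at 1.5-fold, where 0.418% of 10059 genes were (0.298% higher and 0.119% lower with sgRNA-P1). Cd40 was lower with sgRNA-P1 than with sgRNA-P2, at -0.14 [-0.22 to -0.06], the only interval off 0. Here too the fold change fell with GC content across genes (rho = -0.44, Spearman), and with the trend subtracted Cd40 was at -0.10. Tnfrsf13b was at 0.03 [-0.03 to 0.08] and Tnfrsf13c at 0.01 [-0.05 to 0.06], both within 1.2-fold. Cd27 (-0.26 [-0.59 to 0.06]) and Fas (-0.23 [-0.60 to 0.13]) were counted too thinly to exclude 1.5-fold.

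Over the 5 libraries, with cell type as a term, edgeR's quasi-likelihood test called 0 of 9 members between guide and mock libraries. By the same test 0 of 9 members had an unadjusted p under 0.05, beside 427 of all 17581 genes. At that background, 0 of 9 is no result about the members. DESeq2 called 0 of 9 as well. The test called 5 of 17581 genes, 0.0284% (0.0171% higher, 0.0114% lower), among them Pou2f1 (-0.92 ± 0.06 SE, adjusted p = 5.7e-06, edgeR). The members' values were between -0.09 ± 0.12 for Tnfrsf1a and 0.05 ± 0.09 for Fas (SE, n = 5 libraries), with an adjusted p of 0.9996 for each. This fit takes a guide effect that is equal in both cell types.

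Among other pathway genes, edgeR's 5-library guide test called 0 of 13 receptors, 0 of 15 ligands, 0 of 22 adaptors and enzymes and 0 of 15 NF-kB and feedback genes. Of all genes, 0.0284% were called, so these counts are no result about the lists. In the same test 427 of all 17581 genes had an unadjusted p under 0.05, and of the lists 1 receptor, Tnfrsf12a. Among genes of these lists at 5 CPM or more, Tnfrsf12a was also the only one past 1.5-fold with a guide. This was in B cells with sgRNA-P1, where 0.735% of all genes were called. Tnfrsf12a, the receptor of TWEAK, was at 6.56 CPM in mock B cells and 4.34 under sgRNA-P1 (log2 fold change -0.60 [-0.99 to -0.19]), and at 5.44 CPM under sgRNA-P2. Its T cell level was 10.9 CPM in mock and 8.86 with sgRNA-P1, and with the trend on GC content and length subtracted the B cell value with sgRNA-P1 was -0.46. The 5-library value was -0.37 ± 0.13 (SE, adjusted p = 0.9996, edgeR).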

How the data were processed

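RNA was measured in 10 columns, 2 for each of 5 groups. The authors deposited raw read counts per gene for 56893 genes, with gene coordinates and merged exon length in bases as other columns. HISAT2 and featureCounts are named in the submitters' processing notes, with the builds hg38 and mm39. The labels state no versions, annotation, strand or read pairing, so reads of overlapping genes cannot be told apart. In every group, 100% of genes with reads lay within 1 read of 1 count divided in a fixed proportion. The mean chi-square per gene was 0.0023 to 0.0028, so columns were summed and used as 1 library. Among genes under 10 reads, 72 to 74.8% of sums were even once the read lost to rounding was restored. Read pairs counted as 2 reads give such a pattern, so intervals (exact Poisson for levels, exact conditional for ratios) and floors of 3 fragments use reads divided by 2. For a count of 0, the 95% interval reaches further than the floor.

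Counts were scaled by TMM (edgeR 4.0.16, R 4.3.3). Fold changes add a prior of 1 read. A size rule of 1.5-fold, among genes at 5 CPM or more in the higher library, stands where no test was possible, since a group is 1 library. The tests over 5 libraries used glmQLFit and glmQLFTest after filterByExpr, with cell type and guide as terms and Benjamini-Hochberg adjustment over 17581 genes. On simulated data with 200 changed genes, the guide test recovered 55.5% of 1.5-fold and 74.5% of 2-fold changes, with 12 and 4 false calls. The cell type test recovered 56.5% and 73%, with 3 and 6 false calls. Apart from the changed genes, each simulated gene had the same mean share of reads in all 5 libraries. In the data 64.2% of genes passed between T and B libraries. The rates therefore need not hold for members with few reads in a cell type. Alternatives were scaling, prior, level, size rule, single columns, a GC and length trend, DESeq2 1.42.0 and leaving out each library. The GC content came from GENCODE M21 transcripts, by symbol, for 96.4 to 96.6% of genes at 5 CPM. The members and lists were chosen with earlier results of these data known. Named genes are the 10 members, Pou2f1, of each pathway list the 4 genes with the highest level per kilobase in each mock library and those called or past 1.5-fold with a guide, and of each marker list the highest gene and those at 0. Cd70, the APRIL and BAFF genes, Tnfsf9, Tnfsf14 and Fasl were named beyond that rule as ligands of members, as were marker genes quoted beside a result, Cd247, which overlaps Pou2f1, and the genes of the closing observations, all after their values were seen. This holds also for Nfkbie, Nfkbib and Cd160. Single values of 1 B cell and 1 erythroid marker are not reported here, though both stay in their summed lists.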

Additional observations from a re-analysis of the deposited data

How the results depend on the processing

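No paired analysis was possible because the 2 numbered columns of each group are 1 library divided in a fixed proportion, so a block on the replicate number has no separate samples to pair. All 9 members tested kept their direction and their call between T and B libraries under every alternative run, each library left out included (9 called each time, 6 higher in T and 3 higher in B; with no filter on low counts Tnfrsf17 was tested too and not called). In the comparison of guide with mock libraries, 0 members were called under any alternative, with 0 to 32 genes called in all, against 5 (32 with no filter, 0 with guide alone, 8 without mock T, 3 without T cells with sgRNA-P1, 18 and 14 without B cells with sgRNA-P1 and sgRNA-P2). A fit without either T library, or without mock B, leaves 1 library in a group and 1 residual degree of freedom. Some members had an unadjusted p under 0.05 in these fits. The share of all genes that did was not taken, so this is no result about the members. Leaving out the 1.5-fold rule's minimum level brought in members below 5 CPM. It gave 2 lower in T cells with sgRNA-P1 (Cd40, from 11 reads in mock to 0, and Tnfrsf13c). In B cells it gave 1 higher (Tnfrsf9) and 1 lower (Tnfrsf17) with sgRNA-P1. With sgRNA-P2 it gave 2 higher (Tnfrsf9 and Tnfrsf1a) and 1 lower (Tnfrsf17), and between the guides 1 lower (Tnfrsf1a). Those B cell values rest on 8 reads or fewer in each library. A rule of 1.2-fold added 1 member lower with sgRNA-P1 than with sgRNA-P2, Cd27. The share of all genes under either rule was not taken, so these counts are no result about the members. The counts of members by the size rule were 6 and 3 between the mock libraries, and 0 in every other comparison, from either single column. Since the columns are 1 count divided in a fixed proportion, this was fixed beforehand and is no check.

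Directions of members not called in the guide fit turned in 12 cases. With guide as the only term, so that T and B libraries mixed, Cd40 was at 0.38, Tnfrsf13b at 0.24, Tnfrsf13c at 0.46 and Fas at -0.31. Without mock T, Tnfrsf13c was at 0.05, Tnfrsf9 at 5.47 and Tnfrsf1a at 0.40, and without T cells with sgRNA-P1 they were at 0.05, 5.74 and 0.41, where 8 reads or fewer in B libraries set Tnfrsf9 and Tnfrsf1a. Tnfrsf9 was at 1.55 by DESeq2, and Cd40 at 0.016 without B cells with sgRNA-P1; the cause was not tested for either. With each library left out in turn, the values ran from -5.86 to 0.016 for Cd40, -0.96 to 0.052 for Tnfrsf13c, -0.074 to 5.74 for Tnfrsf9 and -0.10 to 0.41 for Tnfrsf1a. The mock T over mock B value of Tnfrsf9 was 6.85 with a prior of 10 reads, so only its ratio to a floor and its interval are given. After the GC and length trend was subtracted, Tnfrsf14 was at 2.15 and Fas at 2.83 between the mock libraries. Depth limits the B cell values of Cd27 and Fas, and those of Tnfrsf1a, Tnfrsf9 and Tnfrsf17 cannot be compared among B libraries.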

Other observations

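Some receptors of the family that the rule for named genes did not take were higher in B libraries, and were chosen here after their values were seen. Ngfr, the low-affinity neurotrophin receptor, was at 10.1 CPM in mock B cells [8.65 to 11.7], 9.23 with sgRNA-P1 and 8.39 with sgRNA-P2, and had 0 reads in both T libraries. The mock B level was 122-fold a floor of 3 fragments in mock T cells. The 95% interval of the log2 ratio of T over B ended at -6.61, which is a smaller ratio. Tnfrsf21 (DR6) was at 6.93 to 7.71 CPM in B libraries and 0.576 and 0.652 in T libraries. Tnfrsf19 was at 3.78 to 4.23 CPM in B libraries and 0.208 and 0.225 in T libraries.

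Cd160, a ligand of HVEM known from NK and T cells, had 17 reads in the mock B library, 80 under sgRNA-P1 and 18 under sgRNA-P2. These are 0.503, 1.66 and 0.64 CPM, below the 5 CPM of the size rule. The log2 fold change over mock B was 1.66 [0.58 to 2.87] with sgRNA-P1 and 0.34 [-1.24 to 1.77] with sgRNA-P2. The 5-library guide test gave 0.39 ± 0.26 (SE, adjusted p = 0.9996, edgeR). In mock T cells the level of Cd160 was 11.1 CPM. Btla, which binds the same receptor, was at 1145 CPM in mock B cells, 1298 with sgRNA-P1 and 1218 with sgRNA-P2, and at 202 and 197 in T libraries.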
